A study of Mus musculus with 4 samples.

Results

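NF-kB is a family of 5 subunits held in the cytoplasm by inhibitory proteins, and 10 genes of this core were followed across the series: the subunits Nfkb1, Nfkb2, Rel, Rela and Relb, the inhibitors Nfkbia, Nfkbib, Nfkbie and Nfkbiz, and the ubiquitin-editing enzyme gene Tnfaip3. The genes were taken by name from the array annotation, and all of their non-control probes were kept, 20 of 56605. The members are 10 of 36994 genes, counted by symbols updated through RefSeq. The series asked how the transcriptome of GC-1 cells responds when Hdac6 is overexpressed. Its product removes acetyl groups from proteins of the cytoplasm, tubulin among them. GC-1 is an immortalised mouse line derived from type B spermatogonia. The Hdac6 vector group (2 arrays) received a pCMV plasmid in which a CMV promoter drives the murine gene with a myc/DDK tag. The empty vector group (2 arrays) received the plasmid without that gene. Both groups were therefore transfected cells, taken 48 h after transfection with a change of medium at 24 h, and untransfected cells were not analysed here. RNA of whole cultures was hybridised to one-colour Agilent mouse arrays.

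In resting cells the IκB proteins, encoded by Nfkbia, Nfkbib and Nfkbie, keep dimers of the subunits out of the nucleus. Receptors for cytokines and microbial products activate a kinase complex that marks these inhibitors for degradation, and freed dimers bind kappaB sites in the promoters of chemokine, acute-phase and survival genes. Several of the genes induced in this way are the inhibitors and subunits themselves, so transcripts of Nfkbia, Tnfaip3, Nfkb2, Rel and Relb are commonly read as a record of recent pathway activity.

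The promoters of the members are shown first because they carry the letters through which this feedback is described. The RefSeq promoter table (GRCm38.p6) held 7 of the 10 members: Nfkb2, Rel, Rela, Nfkbia, Nfkbib, Nfkbie and Tnfaip3. Nfkb1, Relb and Nfkbiz are named only. Each window of 300 bases, 250 before to 50 after the annotated start, was searched on both strands for the kappaB consensus of 10 bases. The consensus was GGGRNWYYCC, with R for A or G, W for A or T, Y for C or T and N for any base. Matches were found for 5 of the 7 genes (71.4%), against 5.14% of all 27025 genes in the table. The 250 bases before the start of those 5 genes are printed 5′ to 3′ on the strand of the gene, with matches in capitals, and for Nfkb2, which has several starts, the most upstream window is shown.
Nfkbia (chr12:55492648-55492897, minus strand): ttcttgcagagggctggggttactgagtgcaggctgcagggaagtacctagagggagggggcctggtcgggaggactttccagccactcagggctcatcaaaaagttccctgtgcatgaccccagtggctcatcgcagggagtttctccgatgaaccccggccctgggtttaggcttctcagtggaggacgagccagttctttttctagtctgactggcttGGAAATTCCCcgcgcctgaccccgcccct
Tnfaip3 (chr10:19015411-19015660, minus strand): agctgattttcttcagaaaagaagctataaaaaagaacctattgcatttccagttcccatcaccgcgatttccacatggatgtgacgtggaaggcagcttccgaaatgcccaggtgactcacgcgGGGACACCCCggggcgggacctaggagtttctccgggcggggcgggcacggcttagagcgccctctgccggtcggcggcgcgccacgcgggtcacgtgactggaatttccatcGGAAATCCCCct
Nfkb2 (chr19:46304487-46304736, plus strand): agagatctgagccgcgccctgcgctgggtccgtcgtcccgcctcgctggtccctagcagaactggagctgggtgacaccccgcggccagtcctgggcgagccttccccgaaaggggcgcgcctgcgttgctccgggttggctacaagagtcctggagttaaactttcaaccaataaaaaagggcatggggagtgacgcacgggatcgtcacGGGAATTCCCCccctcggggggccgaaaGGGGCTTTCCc
Rel (chr11:23770970-23771219, minus strand): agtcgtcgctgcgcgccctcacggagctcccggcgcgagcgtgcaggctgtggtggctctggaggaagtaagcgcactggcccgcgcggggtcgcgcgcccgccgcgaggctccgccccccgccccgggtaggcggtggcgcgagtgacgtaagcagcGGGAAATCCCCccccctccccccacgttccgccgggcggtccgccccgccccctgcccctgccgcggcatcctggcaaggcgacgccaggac
Nfkbie (chr17:45555450-45555699, plus strand): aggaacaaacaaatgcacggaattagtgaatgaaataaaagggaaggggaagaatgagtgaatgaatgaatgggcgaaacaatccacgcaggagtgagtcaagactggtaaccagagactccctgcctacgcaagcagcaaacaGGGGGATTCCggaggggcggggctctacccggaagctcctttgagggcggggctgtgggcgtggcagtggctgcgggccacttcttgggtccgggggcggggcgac

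In the printed Nfkb2 window the matches began 11 bases before the start and, as an overlapping pair, 39 and 38 bases before it. The windows of the other Nfkb2 starts, not printed, held matches beginning 236 and 225 bases before the start and 1 that lies after its start. In Tnfaip3 the matches began 125 and 12 bases before the start, in Nfkbia 29 and in Nfkbie 106. The capitals in Rel are a pair of overlapping matches, 92 and 91 bases before the start. In the windows of Rela and Nfkbib these letters were not found. A match is a run of letters and was not tested for binding here.

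The probes are the means by which each gene was read, and 5 of the 20 cross an intron by the positions in the array files (mm9), so that their 60 bases spread over 140 to 682 genomic bases. These 5 read spliced transcript and are printed 5′ to 3′ with no base capitalised.
Nfkbia, probe 1 (chr12:56590945-56591440, minus strand): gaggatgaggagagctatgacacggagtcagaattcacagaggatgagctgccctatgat
Nfkbib, probe 1 (chr7:29546905-29547054, minus strand): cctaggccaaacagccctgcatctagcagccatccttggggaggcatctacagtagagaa
Nfkbib, probe 2 (chr7:29544167-29544848, minus strand): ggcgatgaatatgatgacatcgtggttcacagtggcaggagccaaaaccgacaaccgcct
Nfkb2, probe 1 (chr19:46386146-46386285, plus strand): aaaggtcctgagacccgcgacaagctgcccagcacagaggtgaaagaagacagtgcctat
Rela, probe 1 (chr19:5645363-5645529, plus strand): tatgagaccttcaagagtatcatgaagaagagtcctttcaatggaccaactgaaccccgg

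Other probes hold the letters AATAAA of a polyadenylation signal: probe 2 of Nfkb2 and probe 2 of Rela at base 41, the Nfkbie probe at base 25 and probe 1 of Nfkbiz at base 53. Whether these letters mark a transcript's 3′ end was not looked up. Probes of a gene are numbered by the start in their transcript that the array files give.

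Levels below are log2 processed signal minus the array's 75th percentile of it, so 0 is the 75th percentile and levels of different probes are not set against each other. That percentile was 815 and 453 units on the Hdac6 vector arrays and 666 and 693 units on the empty vector arrays. Precision is limited by there being 4 arrays. Hdac6 vector 1 and empty vector 2 stood closest: 0.604% of 32594 probes were 2-fold or more apart on these arrays, and 3.82% to 6.84% in every other pair. The 1 Hdac6 probe read 2.62 and 3.24 with the Hdac6 vector and 3.31 and 2.83 with the empty vector (0.909-fold, limma adjusted p = 1.00), and the groups overlapped. It lies on the X chromosome (7507249 to 7507308, mm9) and holds the letters of a polyadenylation signal at base 34. No source used here says whether the vector carries the stretch that this probe reads. The probe therefore does not check the labels. Of 14 spermatogonia markers 7 were well above background on all 4 arrays, among them Zbtb16 and Sall4, while Dazl, Ret and Kit were so on none (0) and Ddx4 on 2. Of 12 macrophage and leukocyte markers 10 were well above background on all 4 arrays and Adgre1 and Tyrobp on none. Their summed level, in multiples of the array's 75th percentile, was 20.9 to 22.3 with the Hdac6 vector and 24.2 to 36.1 with the empty vector. The 4 peritubular myoid markers, all detected, summed to 12.9 to 14.2 with the Hdac6 vector and 9.56 to 10.3 with the empty vector. The spermatogonia sums overlapped, 19.1 and 26.0 with the Hdac6 vector and 40.6 and 20.4 with the empty vector. Of 8 Sertoli markers 5 were well above background on all 4 arrays. Their sums overlapped too, 97.0 and 131 against 138 and 109. Of 5 Leydig markers on the arrays only Cyp17a1 was well above background on all 4 arrays, and Hsd3b1 and Lhcgr were so on none. The Leydig sums were low, 0.274 and 0.337 against 0.249 and 0.272. Each of these sums takes the brightest probe of every marker, also of markers not well above background. The part of these cell types in any result was not tested.

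Of the 20 member probes 19 were well above background on all 4 arrays, and these 19 were tested in 1 fit with all 35206 tested probes. No member probe passed (0 of 19, limma with Benjamini-Hochberg adjustment, smallest adjusted p = 1.00), and 0 of 19 had an unadjusted p under 0.05. Over all tested probes 0.0114% passed and 1.83% had an unadjusted p under 0.05. Fold changes of Hdac6 vector over empty vector ran from 0.779 to 1.27, with 12 probes higher and 7 lower, where 53.2% of all tested probes were higher. The median log2 fold change of the member probes was 0.05, against 0.02 over all tested probes. The split rests on the scaling: with each array's median in place of the 75th percentile, 5 member probes were higher and 14 lower, and the median of all tested probes was -0.07. The groups did not overlap for 5 of the 19 probes, 3 higher and 2 lower, and for 25.0% of all tested probes, so the members' share is close to the background. For 17 of the 19 probes the 95% interval of the fold change lay within 2-fold either way. The other 2, probe 3 of Nfkb1 and probe 1 of Rel, had intervals that include a 2-fold difference. With bulk RNA, fewer cells carrying a transcript and less of it per cell cannot be told apart.

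**Figure D1:**
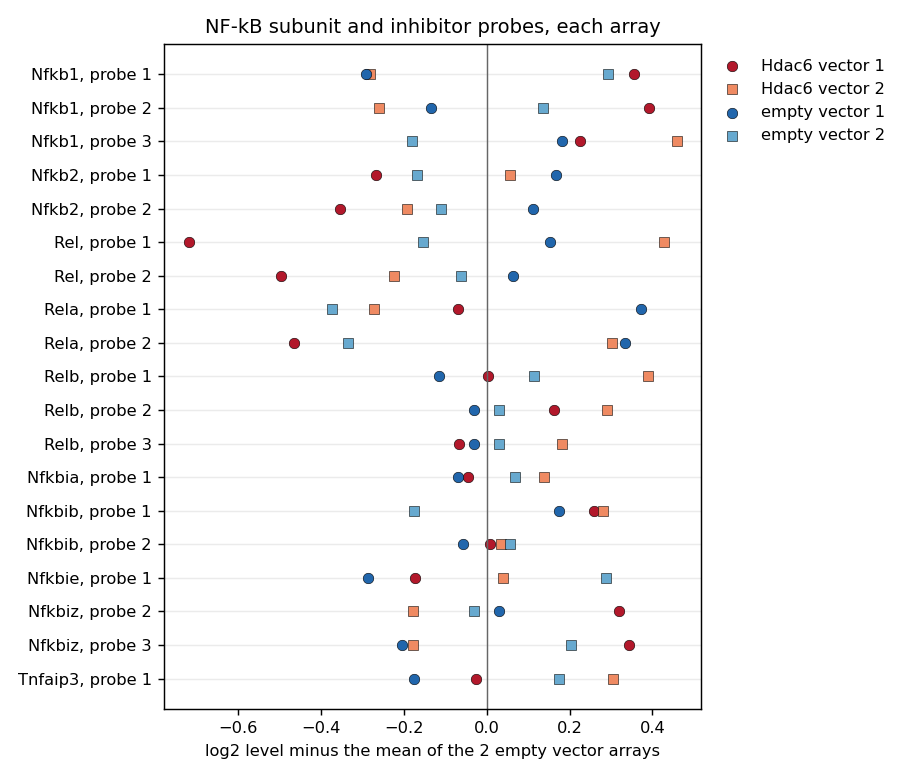
Log2 level of each tested member probe on each of the 4 arrays, minus the mean of the 2 empty vector arrays for that probe. Red and orange points (Hdac6 vector) and blue points (empty vector) interleave in 14 of the 19 rows.

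Rela encodes the subunit that carries the main transactivation domain in most inducible dimers. Its brighter probe, probe 2 (chr19:5648070-5648129, plus strand), read 5.76 and 6.53 with the Hdac6 vector, against 6.56 and 5.89 with the empty vector. Hdac6 vector 2 and empty vector 1 were the high pair and Hdac6 vector 1 and empty vector 2 the low pair, so the arrays paired across the groups rather than within them. The fold change was 0.946 (95% interval 0.559 to 1.60). The intron-crossing probe 1 read -3.12 and -3.32 with the Hdac6 vector and -2.68 and -3.42 with the empty vector. Here empty vector 1 alone stood high, and the fold change was 0.888 (0.508 to 1.55).

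Nfkb1 encodes the precursor of the DNA-binding partner of Rela, and 3 probes read it. Probe 1 (chr3:135247898-135247958, minus strand) read 2.65 and 2.02 with the Hdac6 vector, against 2.01 and 2.59 with the empty vector. Hdac6 vector 1 lay beside empty vector 2, and Hdac6 vector 2 beside empty vector 1, and the fold change was 1.03 (0.639 to 1.65). Probe 2 (chr3:135275144-135275203) had the same high and low arrays, with -1.09 and -1.74 in Hdac6 vector cells and -1.62 and -1.35 in empty vector cells, and a fold change of 1.05 (0.634 to 1.73). Probe 3 (chr3:135254550-135254609) differed from both: it read -2.32 and -2.09 with the Hdac6 vector and -2.37 and -2.73 with the empty vector. Its groups did not overlap, by a gap smaller than the difference between the empty vector arrays, and the fold change was 1.27 (0.780 to 2.06), the highest of the 19. The probes of Nfkb1 thus put its arrays in different orders. The array files assign each of them to a different transcript entry, and only that of probe 3 is a RefSeq transcript. Counts by the brightest probe, given below, use probe 1 for this gene.

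Rel encodes the c-Rel subunit, best known from lymphocytes, and its brighter probe had the lowest fold change and the smallest unadjusted p of the 19. That probe, probe 2 (chr11:23637051-23637110, minus strand), read 1.00 and 1.28 with the Hdac6 vector, against 1.56 and 1.44 with the empty vector. Both Hdac6 vector arrays lay below both empty vector arrays. The fold change was 0.779 (95% interval 0.534 to 1.14, limma unadjusted p = 0.170, adjusted p = 1.00), so the interval holds 1. Probe 1 (chr11:23641729-23641788) read -4.35 and -3.20 with the Hdac6 vector and -3.47 and -3.78 with the empty vector. The highest and the lowest array were both Hdac6 vector arrays, and the spread over the 4 arrays, 1.15 on the log2 scale, was the widest of the tested member probes. Its fold change was 0.904 (0.467 to 1.75).

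Since probe 1 of Rel varied most, the genes with the most similar pattern over the 4 arrays were looked up among 16176 genes, by the Euclidean distance between mean-centred log2 levels. The nearest was Krt36, a hair keratin gene, at a distance of 0.04, with -5.67 and -4.51 in Hdac6 vector cells and -4.82 and -5.07 in empty vector cells. Next came Mms22l, a gene of replication fork repair (0.05), and Eya1, a developmental phosphatase and coactivator gene (0.06). With 4 arrays such likeness is a description of these libraries.

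Nfkb2 and Relb encode the pair of subunits of the alternative pathway, in which the Nfkb2 precursor is processed. Probe 2 of Nfkb2 (chr19:46386440-46386499, plus strand) read 3.66 and 3.83 with the Hdac6 vector, against 4.13 and 3.91 with the empty vector. The groups did not overlap, and the fold change was 0.828 (0.575 to 1.19). The intron-crossing probe 1 read 2.50 and 2.82 with the Hdac6 vector and 2.93 and 2.60 with the empty vector. There the groups overlapped and the fold change was 0.930 (0.630 to 1.37).

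All 3 Relb probes had fold changes above 1, probe 3 turning to the lower side with median scaling, and none passed. Probe 3 (chr7:20191722-20191781, minus strand) read 3.13 and 3.37 with the Hdac6 vector, against 3.16 and 3.22 with the empty vector, a fold change of 1.04 (0.725 to 1.49). The low and the high array were both Hdac6 vector arrays. Probe 2 (chr7:20191939-20191998) read 0.64 and 0.77 with the Hdac6 vector and 0.45 and 0.51 with the empty vector. These groups did not overlap, and the fold change was 1.17 (0.802 to 1.71). Probe 1 (chr7:20203058-20203117) read -2.38 and -1.99 with the Hdac6 vector and -2.50 and -2.27 with the empty vector, overlapping groups with a fold change of 1.15 (0.706 to 1.86).

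Nfkbia encodes IκB-alpha, the inhibitor that is degraded and made anew within each round of signalling. Its probe read 4.70 and 4.89 with the Hdac6 vector, against 4.68 and 4.82 with the empty vector. Hdac6 vector 2 and empty vector 2 were the high arrays, the groups overlapped, and the 4 values spanned 0.21 on the log2 scale. The fold change was 1.03 (95% interval 0.717 to 1.49, limma adjusted p = 1.00), so the interval holds neither a 2-fold rise nor a 2-fold fall. In the authors' deposited table the Nfkbia row read 4.97 and 4.99 with the Hdac6 vector and 4.95 and 5.08 with the empty vector, a log2 difference of -0.04.

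Tnfaip3 encodes the enzyme that edits ubiquitin chains and ends signalling upstream of the kinase complex. Its probe (chr10:18720776-18720835, minus strand) read 2.68 and 3.01 with the Hdac6 vector, against 2.53 and 2.88 with the empty vector. As for Nfkbia, Hdac6 vector 2 and empty vector 2 were the high arrays and the groups overlapped. The log2 fold change was 0.14 (95% interval -0.43 to 0.71). Nfkbie encodes IκB-epsilon. It read 2.62 and 2.83 with the Hdac6 vector and 2.50 and 3.08 with the empty vector (chr17:45700000-45700059, plus strand). Both Hdac6 vector arrays lay between the empty vector arrays, and the fold change was 0.955 (0.630 to 1.45).

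Nfkbib encodes IκB-beta, a slower inhibitor. Its brighter probe, probe 2, gave the most even values of the tested member probes, 2.27 and 2.30 with the Hdac6 vector and 2.21 and 2.32 with the empty vector, a spread of 0.11 on the log2 scale. The fold change was 1.02 (0.712 to 1.45). Probe 1 read -1.41 and -1.39 with the Hdac6 vector, against -1.50 and -1.84 with the empty vector. Its groups did not overlap, with empty vector 2 lowest, and the fold change was 1.21 (0.769 to 1.89).

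Nfkbiz encodes IκB-zeta, an inducible nuclear cofactor that in mouse macrophages is needed for secondary response genes such as Il6. Probe 3 (chr16:55812091-55812150, minus strand) read 0.29 and -0.23 with the Hdac6 vector, against -0.26 and 0.15 with the empty vector. Again Hdac6 vector 1 lay beside empty vector 2 and Hdac6 vector 2 beside empty vector 1. The fold change was 1.06 (0.670 to 1.67). Probe 2 (chr16:55817859-55817918) read -1.99 and -2.49 with the Hdac6 vector and -2.29 and -2.34 with the empty vector, a fold change of 1.05 (0.643 to 1.72), and the Hdac6 vector arrays were its highest and lowest. Probe 1 (chr16:55824797-55824856) was not well above background on any array (0 of 4) and has no fold change.

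**Figure D2:**
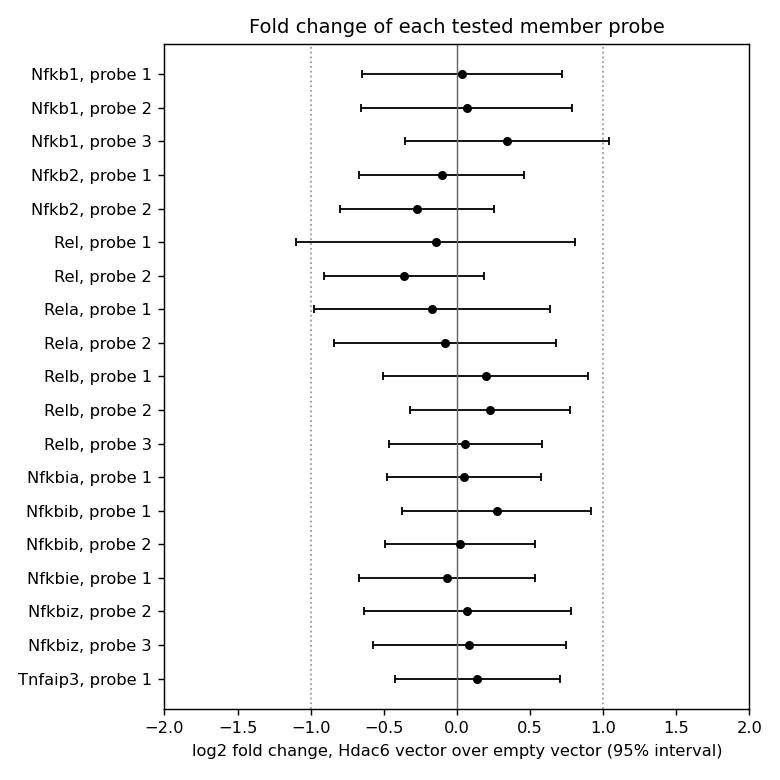
Log2 fold change of each tested member probe, Hdac6 vector over empty vector, with its 95% interval from the limma fit and dotted lines at a 2-fold difference. All 19 intervals hold 0, and 17 lie inside the dotted lines.

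The spread of the 4 arrays had a median of 0.50 on the log2 scale for the member probes and 0.58 for all tested probes. Hdac6 vector 2 was the highest array for 8 of the 19 probes (37.2% of all tested probes) and empty vector 1 the lowest for 8 (28.2% of all tested probes). The closest pair, Hdac6 vector 1 and empty vector 2, lay together above the other arrays for 3 of the 19 probes (18.5% of all tested probes) and together below them for 3 (30.5% of all tested probes). With an array left out, 13 of the 19 fold changes turned their sign in at least 1 fit. The probes that kept it in every fit of the scanner values were probe 3 of Nfkb1, probe 2 of Nfkb2, probe 2 of Rel, probes 1 and 2 of Relb and probe 1 of Nfkbib, 6 in all. Widest was probe 1 of Rel, at a log2 fold change of -0.72 without Hdac6 vector 2 and 0.43 without Hdac6 vector 1.

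**Figure D3:**
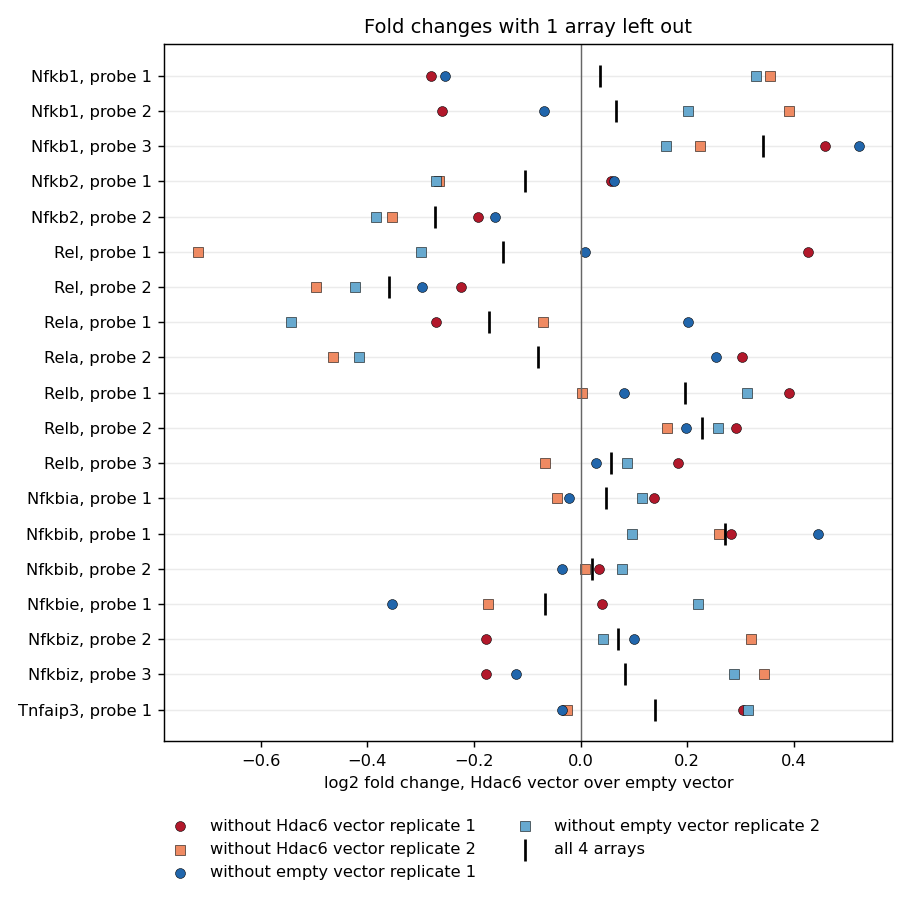
Log2 fold change of each tested member probe with all 4 arrays (black bar) and with each array left out in turn. The points fall on both sides of 0 in 13 of the 19 rows.

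The other genes of the pathway were counted in 6 lists by role, 110 genes of which 101 were tested, each by its brightest tested probe. Outside the target genes no list held a gene that passed (0 of 74, limma), and 0 of the 74 had an unadjusted p under 0.05. By the brightest probe the members themselves were 6 higher and 4 lower, at a median of 0.03 on the log2 scale, against 0.00 over 23463 tested genes, of which 0.00852% passed and 25.2% had groups that did not overlap. Ligands such as Il18 and Tnfsf11 had 7 of 11 genes tested, 4 higher and 3 lower (median 0.02). Il1a, Il1b, Il17a and Cd40lg were too dim to be tested. Receptors had 15 of 17 tested, 6 higher and 9 lower (median -0.03). Adaptors and ubiquitin ligases had all 22 tested, 10 higher and 12 lower (median -0.03), and kinases all 14, 5 higher and 9 lower (median -0.08). Other inhibitors and regulators had all 16 tested, 5 higher and 11 lower (median -0.07). Some of these splits rest on the scaling: with median scaling 1 of the 10 members and 3 of the 22 adaptors and ubiquitin ligases were higher. Ligands then had 2 of 7 higher, other inhibitors and regulators 3 of 16, kinases 4 of 14 and target genes 19 of 27. Receptors stayed at 6 of 15, and the median over all tested genes was -0.09.

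The genes of these 5 lists named here did not pass and are given as values, since their groups did not overlap. Il18, a cytokine of the interleukin-1 family, read 2.25 and 2.70 with the Hdac6 vector and 1.79 and 2.14 with the empty vector, at 1.42-fold (0.945 to 2.15). Tnfsf11, the RANK ligand gene, was at 0.815-fold, and Tnfrsf1a, the main receptor for TNF, at 0.926-fold. Traf3 encodes an adaptor that keeps the kinase NIK scarce and so restrains the alternative pathway, and it read 2.35 and 2.52 with the Hdac6 vector and 2.91 and 2.69 with the empty vector, at 0.774-fold (0.537 to 1.12). Map3k14, which encodes NIK itself, was at 0.775-fold (0.515 to 1.17). Birc3, a ubiquitin ligase gene, was at 1.31-fold, and Rnf31, which encodes the catalytic part of the linear ubiquitin chain complex, at 0.863-fold. The IKK-related kinase genes Ikbke and Tbk1 were at 1.23-fold and 1.21-fold. Among the regulators, Tnip3, whose product binds that of Tnfaip3, was at 1.24-fold, the ubiquitin ligase gene Itch at 0.802-fold, and Commd1, which promotes loss of Rela from chromatin, at 1.27-fold.

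Of the target genes 21 of 27 tested were higher and 6 lower, at a median of 0.34 on the log2 scale. The groups did not overlap for 13 of them, all 13 higher. Over all tested genes 50.7% were higher and 12.3% were higher without overlap. Before adjustment 7 of the 27 had a limma p under 0.05, against 1.84% of all tested genes, and 1 passed. Saa3, which encodes an acute-phase serum amyloid A protein, read 6.25 and 6.63 with the Hdac6 vector, against 3.79 and 4.02 with the empty vector. It rose 5.78-fold (95% interval 3.90 to 8.59, limma adjusted p = 0.0341), and this call was lost without Hdac6 vector 1 (adjusted p = 0.693), without Hdac6 vector 2 (0.902), with median scaling (0.0724) and with no trend in the spread (0.229). The log2 fold change in these fits was 2.73, 2.34, 2.44 and 2.53, against 2.53 with all 4 arrays and the settings given. Next by size, chosen after their values were seen, were the chemokine genes Cxcl1, at 3.96 and 4.43 with the Hdac6 vector and 2.24 and 3.01 with the empty vector, and Cxcl5, at 3.57 and 3.77 with the Hdac6 vector and 2.33 and 2.14 with the empty vector. Neither passed (limma adjusted p = 1.00 for Cxcl1 and 0.793 for Cxcl5). Other settings changed this call. A replicate block pairs arrays by number, and a crossed block, added after seeing the data, pairs Hdac6 vector 1 with empty vector 2. Cxcl1 passed with normexp background correction (0.000119), the replicate block (0.0426), the crossed block (0.0137) and without empty vector 2 (9.15e-05), and Cxcl5 with normexp (0.00102), the crossed block (0.00210) and without empty vector 2 (0.0292). Over all settings run on the scanner values the log2 fold change was 1.19 to 1.96 for Cxcl1 and 1.34 to 1.54 for Cxcl5, and the adjusted p reached 1.00 for each. Picked in the same way for values near 1, Il6 was at 0.893-fold, Bcl2l1, a survival gene, at 0.935-fold and Irf1, a transcription factor gene, at 1.02-fold. The list was chosen with results of these arrays known, so its count is no independent evidence of a direction.

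Empty vector 1 was the lowest array for 16 of the 27 target genes (59.3%) and, by the brightest probe, for 6 of the 10 members, against 27.7% of all tested genes. It was also lowest for 3 of the 7 ligands, 6 of the 15 receptors and 7 of the 22 adaptors and ubiquitin ligases. Among the other inhibitors and regulators it was lowest for 5 of 16, and among the kinases for 2 of 14 (14.3%). Without it 16 of the 27 target genes were higher and their median was 0.19, and without empty vector 2 these were 25 of 27 and 0.53. Of the members 2 of 10 were higher without empty vector 1 (median -0.08) and 7 of 10 without empty vector 2 (median 0.10). For Il6 and for Csf1, a colony-stimulating factor gene, both chosen after their values were seen, empty vector 2 was the highest array and empty vector 1 the lowest. Csf1 read 4.08 and 3.76 with the Hdac6 vector and 3.18 and 4.40 with the empty vector.

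**Figure D4:**
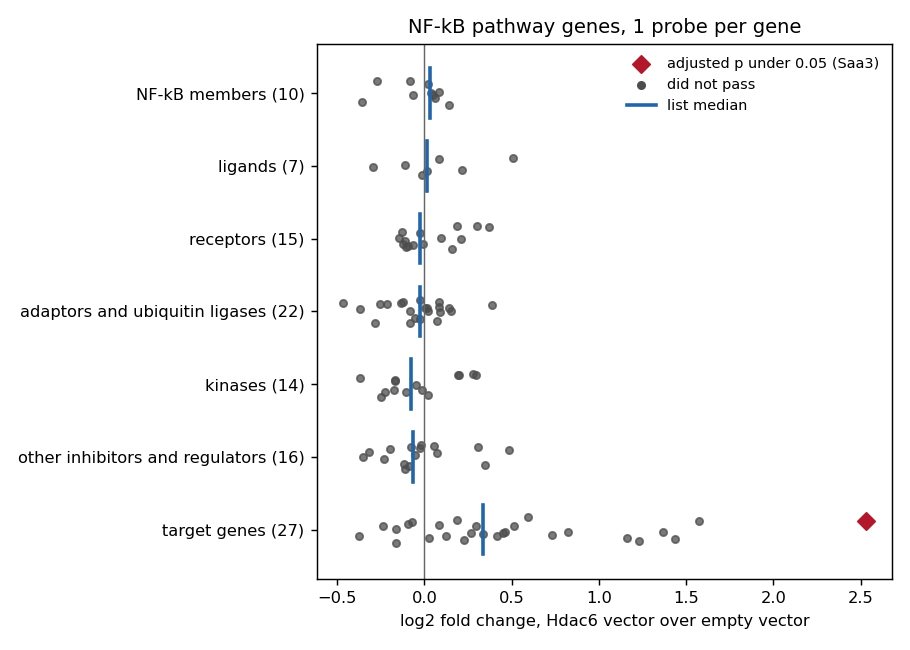
Log2 fold change, Hdac6 vector over empty vector, of each tested gene of the members and the 6 pathway lists, 1 probe per gene, with the number tested in parentheses. Medians (blue bars) of the members and the first 5 lists lie between -0.08 and 0.03, that of the target genes at 0.34, and the red diamond is Saa3.

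Promoters with a kappaB match were read beside the fold changes. The 5 members with a match had log2 fold changes from -0.36 to 0.14 by their brightest probe (median -0.07), and Rela and Nfkbib, without one, had -0.08 and 0.02. Of the target genes in the promoter table, 10 of 19 (52.6%) held a match, and 9 of these were tested, 7 higher and 2 lower with a median of 0.19. The 9 tested target genes without a match in the window, Saa3 among them, were 6 higher and 3 lower with a median of 0.46. The difference between these medians was not tested. The search misses kappaB sites with other letters or outside the window, so genes without a match may still have such sites. No gene with a match passed with all 4 arrays and the settings given, among the members (0 of 5) or the target genes (0 of 9). Over all 23463 tested genes 0.00852% passed, so counts of 0 in lists this small say nothing about promoters with a match. Of the target genes with a match, Cxcl1 passed under the settings named for it above. Ccl20, a chemokine gene chosen after its values were seen, read -2.13 and -2.22 with the Hdac6 vector. With the empty vector it read -4.55 and -1.44, so both Hdac6 vector arrays lay between these, at 1.77-fold (0.514 to 6.07). Its log2 fold change was 2.37 without empty vector 2 and -0.73 without empty vector 1.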

How the data were processed

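One-colour array data of 4 samples, 2 per group, were analysed. Groups and numbers come from the sample titles. No label says that the arrays of a group are separate cultures, so the p-values here reflect the spread between these samples alone, possibly a technical one. The deposited scanner files hold, per the file headers, spot intensity from Feature Extraction 11.5.1.1, background-subtracted and not normalized between arrays, and the submitters' processing notes name that software. The arrays share 1 slide and 1 scan day. The authors' deposited value table holds log2 values, 1 row per gene name (37060). No source used here says how it was made. For 99.8% to 99.9% of 25183 rows with 1 probe it equals log2 intensity plus a constant per array (tolerance 0.01), which gives its scale and direction. Its centring stays unknown, and its column medians are -3.71 and -3.68 for the Hdac6 vector and -3.78 and -3.67 for the empty vector.

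Spots with an outlier flag were left out, log2 intensities of 300 probes printed in 10 spots were averaged, and each array's 75th percentile subtracted. Probes well above background on both arrays of at least 1 group were tested (35206) with limma 3.58.1 in R 4.3.3 (lmFit, eBayes with a trend), two-sided, p-values being adjusted over these probes by Benjamini-Hochberg. A gene passed at an adjusted p under 0.05. An exact permutation test of 2 against 2 arrays cannot go below 0.333. The fit was tested on simulated data. Named are all members with all probes, Hdac6, in each list the genes that passed or else the 3 with the smallest p among those whose groups did not overlap, and the 3 genes most like the widest-ranging member probe. Members and lists were chosen with earlier results of these data known. Symbols were updated through RefSeq (GRCm38.p6), and probe positions are those of the files (mm9). Deviations of arrays with the same number correlated at -0.36 over 35206 probes, so arrays with the same number did not deviate alike. With 2 arrays per group this cannot tell whether they were prepared together. Alternatives were normexp background correction, quantile normalization, median scaling, other filters on dim probes, no trend, the replicate block, the value table and each array left out. A crossed block was added after seeing the data.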

Additional observations from a re-analysis of the deposited data

How the results depend on the processing

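Member probes that passed numbered 0 under every setting run, and the smallest adjusted p was 0.960. Over all probes 4 passed, against 29 with normexp, 2 with quantile normalization, 0 with median scaling, 2 with no trend, 19 in the value table and 0 to 302 with an array left out (0 without Hdac6 vector 1 or 2, 12 without empty vector 1, 302 without empty vector 2). Pathway genes that passed numbered 1, against 5 with normexp, 0 with median scaling, 0 with no trend and 0 to 7 with an array left out. With the replicate block 22 probes and 2 pathway genes passed, though arrays with the same number did not deviate alike. With the crossed pairing, chosen after seeing the data, 15 probes and 4 pathway genes passed. The 19 of the value table are gene rows, of 23460 tested, and not probes. By the brightest probe, 2 of 23463 genes passed with all 4 arrays and the settings given. Signs of member log2 fold changes turned with median scaling for Nfkb1 probes 1 and 2 (-0.054 and -0.026) and Relb probe 3 (-0.033). They also turned with it for Nfkbia (-0.044), Nfkbib probe 2 (-0.070) and Nfkbiz probes 2 and 3 (-0.020 and -0.0082). With normexp the log2 fold changes turned sign for Rel probe 1 (0.047) and Rela probe 1 (0.0090). With an array left out they ran from -0.28 to 0.35 and -0.26 to 0.39 for Nfkb1 probes 1 and 2, -0.27 to 0.063 for Nfkb2 probe 1, -0.72 to 0.43 for Rel probe 1, -0.54 to 0.20 and -0.46 to 0.30 for Rela probes 1 and 2, -0.066 to 0.18 for Relb probe 3, -0.045 to 0.14 for Nfkbia, -0.035 to 0.079 for Nfkbib probe 2, -0.35 to 0.22 for Nfkbie, -0.18 to 0.32 and -0.18 to 0.34 for Nfkbiz probes 2 and 3 and -0.035 to 0.31 for Tnfaip3. A fit with an array left out holds a lone array, assumed to vary like the other group. Probe signs were compared with the value table only for Nfkbia, Nfkbie and Tnfaip3, each with 1 probe, and Nfkbia turned (-0.035). For genes with more probes the table holds 1 row each. Its Nfkbiz row was at -0.0029, while both tested Nfkbiz probes were above 0 with all 4 arrays. The causes were not tested. Signal over background limits probe 1 of Nfkbiz, which has no fold change.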
